A study of Mus musculus with 12 samples.

Results

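The 8 genes described here code for proteins that make, load, clear, degrade and sense GABA: Gad1, Gad2, Slc32a1, Abat, Slc6a11, Slc6a13, Gabbr1 and Gabbr2. They were chosen by gene symbol, as the transcript clusters (groups of probes assigned to 1 transcribed region) that the array's probe table names for them. Each had exactly 1 cluster among the 35556 on the array, of which 21789 carry 1 gene symbol. The septum was profiled in 12 adult female mice with 1 Affymetrix Mouse Gene 1.0 ST array per mouse, to ask which transcripts differ between mothers and females that had not given birth. All the mice came from a line bred for high maternal aggression, with outbred hsd:ICR mice as the founding stock, so both groups share that selection and no other strain was measured. The 6 lactating mice were taken on postpartum days 6 to 8, after 2 weeks with a breeder male. The 6 virgin mice, matched for age, had spent those 2 weeks with 2 other females, and then mice of both groups were housed singly. The mice were about 70 days old, none was treated, and the virgin mice were in estrus or diestrus, with the stage of each mouse not given. The sources name the tissue both as the lateral septum and as the whole septum with its medial part.

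GABA is the main inhibitory transmitter of the forebrain, and most projection neurons of the lateral septum use it. Glutamate decarboxylase, in a form coded by Gad1 and another coded by Gad2, makes GABA from glutamate, and the vesicular transporter Slc32a1 loads it into synaptic vesicles. After release, plasma membrane carriers such as Slc6a11 and Slc6a13 take it up again, GABA transaminase (Abat) degrades it in mitochondria, and GABA-B receptors, each built from 1 Gabbr1 and 1 Gabbr2 subunit, slow the cell through G proteins.

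RefSeq promoter windows (GRCm38.p6, 250 bases before to 50 bases after the annotated start) were at hand for 7 of the 8 genes. Those of Gad1, Gad2 and Slc32a1 are shown because these genes define a GABA neuron and their intensities are compared across mice below, and the first of 3 windows of Slc6a13 is shown because that gene varied most. Capitals mark CANNTG, the letters of an E-box, which read the same on both strands.

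Gad1, chr2:70561879-70562178, plus strand: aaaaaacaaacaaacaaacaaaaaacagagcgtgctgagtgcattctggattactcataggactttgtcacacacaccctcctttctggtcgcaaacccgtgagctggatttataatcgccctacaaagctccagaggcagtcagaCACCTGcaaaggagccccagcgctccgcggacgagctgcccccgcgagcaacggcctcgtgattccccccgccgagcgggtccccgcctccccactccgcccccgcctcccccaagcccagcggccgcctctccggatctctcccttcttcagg
Gad2, chr2:22622077-22622376, plus strand: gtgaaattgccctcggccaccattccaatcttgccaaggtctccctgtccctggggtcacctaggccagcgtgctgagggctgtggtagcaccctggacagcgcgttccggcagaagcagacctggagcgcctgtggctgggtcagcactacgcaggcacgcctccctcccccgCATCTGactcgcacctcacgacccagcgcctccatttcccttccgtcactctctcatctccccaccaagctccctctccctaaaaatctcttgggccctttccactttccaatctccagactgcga
Slc32a1, chr2:158610508-158610807, plus strand: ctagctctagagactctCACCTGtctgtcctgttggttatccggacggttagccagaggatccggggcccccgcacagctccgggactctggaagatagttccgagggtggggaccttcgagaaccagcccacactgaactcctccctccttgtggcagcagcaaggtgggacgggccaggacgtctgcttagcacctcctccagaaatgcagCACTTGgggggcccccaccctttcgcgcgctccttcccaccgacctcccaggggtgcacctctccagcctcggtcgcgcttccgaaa
Slc6a13, chr6:121300038-121300337, plus strand: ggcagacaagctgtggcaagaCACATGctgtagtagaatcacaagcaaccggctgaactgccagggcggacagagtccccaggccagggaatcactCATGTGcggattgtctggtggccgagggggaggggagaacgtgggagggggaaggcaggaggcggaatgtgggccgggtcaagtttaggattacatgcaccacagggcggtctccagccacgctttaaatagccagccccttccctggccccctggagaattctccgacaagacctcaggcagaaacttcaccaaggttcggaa

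The letters CANNTG occurred once each in the Gad1 and Gad2 windows and at 2 places each in the windows shown for Slc32a1 and Slc6a13, and 72.3% of all 32851 promoter windows held them. On either strand, GGGCGG occurred once for Gad1, 2 times for Slc6a13 and for Gabbr2, 3 times for Gabbr1 and 4 times for Slc6a11, and in 35.7% of all windows. Neither the Gad2 nor the Slc32a1 window held it. TATAAA was found in the Gad1 window and in 13.6% of all windows. TAATTA and TGACGTCA, held by 5.29% and 1.79% of all windows, were in none of the 9 windows of the 7 genes, and no matches in these windows overlapped. The guanine and cytosine content ran from 48.7% in the third Slc6a13 window to 80.3% for Gabbr2, beside a median of 52.7% over all windows.

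Across the whole array, limma called 2828 of 35556 clusters at an unadjusted p under 0.05, which is 7.95%, with 1160 higher in lactating mice (3.26%) and 1668 lower (4.69%). This split depended on scaling. In the main fit, on log2 values, 41% of the calls were higher. On the linear intensities, as deposited, 55.2% were higher (1569 against 1274). Once each array's median was subtracted, 67.1% were higher (2027 against 992). At the study's cutoff of 0.0025 the main fit called 120 (0.337%) and none passed a Benjamini-Hochberg adjusted p under 0.05. The 2 groups did not overlap at 140 clusters (0.394%). Array medians lay between 320 and 339, and any pair of arrays correlated at 0.987 to 0.994. All 6 markers of the lateral septum and all 6 of the medial septum lay, on every array, above the 95th percentile of 175 vomeronasal receptor clusters, receptors of a sense organ of the nose. Lactating mouse 4 stood apart, with the highest mean marker levels for excitatory neurons of cortex and hippocampus and for meninges, and the lowest for striatum. Its mean levels for astrocytes and choroid plexus were also the highest, but their markers did not go together. Of 9 astrocyte markers, 1 was highest and 1 lowest in this mouse, and of 6 choroid plexus markers, 2 were highest and 1 lowest.

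The transcripts for GABA synthesis, transport and reception differed little between the group means, by 0.01 to 0.05 on the log2 scale for 7 of the 8 genes and by 0.21 for Slc6a13. None of the 8 genes was called by limma at an unadjusted p under 0.05, where 7.95% of all clusters were, none at 0.0025 and none after adjustment, and the groups overlapped for all 8. An exact permutation test, which went through every way of dividing the 12 mice into 2 groups of 6 (two-sided, smallest possible p 0.00216), also gave no p under 0.05. The mean log2 difference, lactating minus virgin, was above 0 for all 8, with a median of 0.03. Over all 35556 clusters it was above 0 for 16215, with a median of -0.01. That share took in clusters of all intensities, and clusters of like brightness were not compared apart. For all 8 genes the difference stayed above 0 under quantile normalization, subtraction of array medians and cyclic loess. In those settings the median over all clusters was -0.0016, 0.0142 and 0.00016, in that order. With 1 mouse left out, the difference was above 0 for 6 to 8 of the genes, the lowest count coming without virgin mouse 5. The genes share the same arrays, so these 8 signs are not 8 independent observations. In tissue of this kind, fewer cells of a type and less RNA per cell cannot be told apart. All 8 lay above the vomeronasal percentile on each of the 12 arrays.

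**Figure D1:**
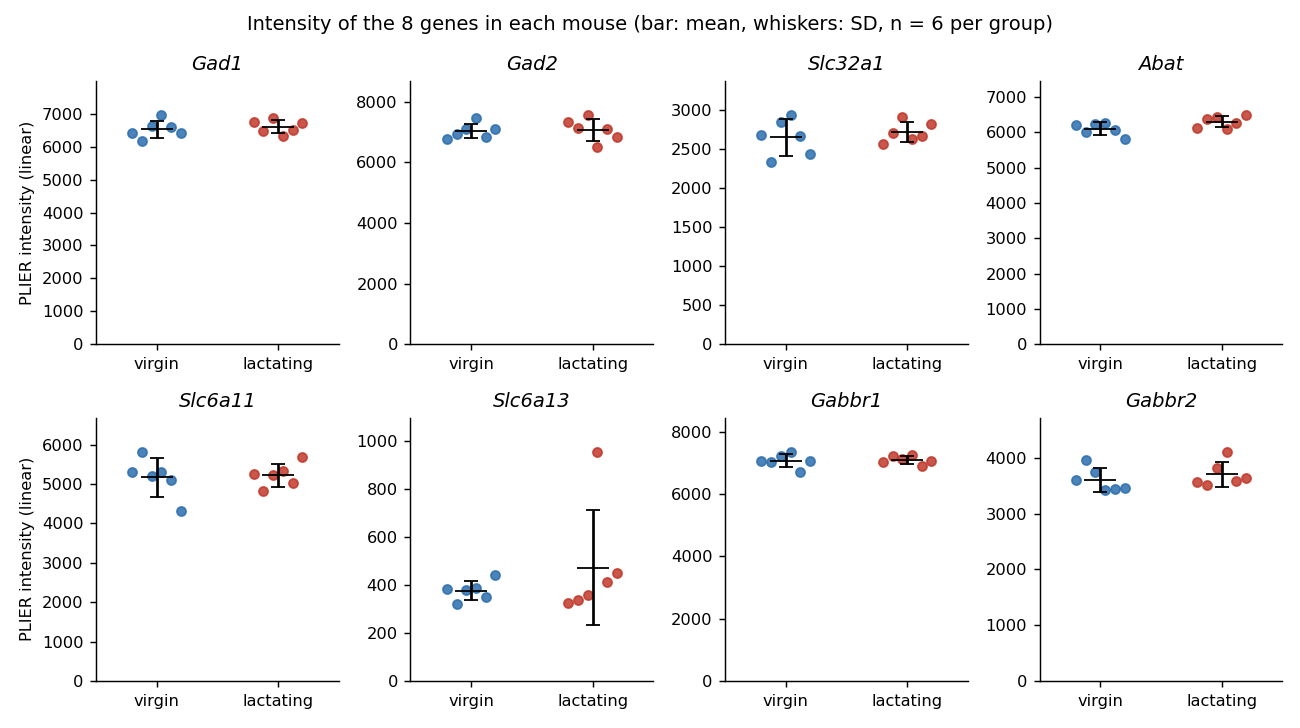
Deposited intensity (linear scale, starting at 0) of each of the 8 genes in each mouse, virgin in blue and lactating in red; the horizontal bar is the mean and the whiskers the SD of 6 mice. The groups overlap in each panel, and the point that stands alone is Slc6a13 in lactating mouse 4, at 953.

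Of the synthesis genes, Gad1 codes for the enzyme form spread through the cell, GAD67. The study's authors mention an unpublished finding of their own, in which GAD67 mRNA was higher in septum from lactating mice. They count the lack of such a difference on these arrays as a possible false negative. The Gad1 intensity ran from 6335 over a median of 6612 to 6873 in lactating mice, and from 6160 over 6505 to 6952 in virgin mice. The lactating mice lay inside the virgin range, and the highest and the lowest of all 12 values were both in virgin mice. The means were 6608 ± 200 (SD, n = 6) and 6524 ± 266 (SD, n = 6). On the scale of log2(intensity + 16) the difference was 0.02 ± 0.04 (SE), and its 95% interval reached from -4.18% to 7.11% (limma adjusted p = 0.875; exact permutation p = 0.541). It was 0.0024 without virgin mouse 2 and 0.04 without virgin mouse 4.

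Gad2 codes for GAD65, the form that sits at nerve terminals. Lactating mice gave 6519 at the lowest, 7117 at the median and 7550 at the highest, against 6763, 7020 and 7448 in virgin mice. Here the extremes of all 12 mice were both lactating, with mouse 4 lowest and mouse 3 highest. The difference was 0.01 ± 0.04 (SE) on the log2 scale, with an interval of -5.53% to 7.01% (limma adjusted p = 0.957), and it passed below 0 without lactating mouse 1 or 3 or virgin mouse 1 or 5. The balance of the pair, taken as the log2 ratio of Gad1 to Gad2 within each array, differed by 0.01 ± 0.03 (SE) between the groups (exact permutation p = 0.693).

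Slc32a1, the vesicular GABA transporter, spread wider. Its intensity was 2567, 2691 and 2908 (lowest, median, highest) in lactating mice and 2334, 2674 and 2935 in virgin mice. The virgin mice held both extremes, mouse 2 the lowest and mouse 4 the highest, and enclosed the lactating mice. The means of 2719 ± 126 and 2651 ± 232 (SD, n = 6 each) differed by 0.04 ± 0.06 (SE) on the log2 scale, an interval of -5.76% to 12.1% (limma adjusted p = 0.822). It was 0.0039 without virgin mouse 2 and 0.07 without virgin mouse 4.

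Abat, whose transaminase starts the breakdown of GABA, came closest to a separation of the groups. Lactating mice gave 6110, 6326 and 6484 at the lowest, median and highest, and virgin mice gave 5820, 6144 and 6271. Of the 6 lactating mice, 4 lay above every virgin mouse, while mice 1 and 4 lay within the virgin range. The means were 6303 ± 155 and 6105 ± 177 (SD, n = 6 each). The difference was 0.05 ± 0.03 (SE) on the log2 scale, or 3.23% with an interval of -1.74% to 8.45% (limma p = 0.187, adjusted p = 0.677; exact permutation p = 0.0671). Without lactating mouse 4 the exact permutation p was 0.039 and limma's p 0.149, so the permutation call rested on leaving out 1 mouse. Its residual SD was small, at 0.04 on the log2 scale, and only 1.83% of clusters had a smaller one. That ranking took in clusters of all intensities, with a median of 331, and clusters of like brightness were not compared apart.

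The carriers behaved differently from each other in their spread. Slc6a11 codes for a GABA carrier found mainly on astrocytes (GAT3). It ran from 4820 over 5236 to 5692 in lactating mice and from 4309 over 5247 to 5811 in virgin mice. Virgin mouse 6 was lowest and virgin mouse 2 highest, so the virgin range enclosed the lactating one. The difference of 0.02 ± 0.06 (SE) on the log2 scale had an interval of -8.02% to 11.5% (limma adjusted p = 0.932), and it passed below 0 without lactating mouse 6 or virgin mouse 6. Of 9 astrocyte markers, 1 was higher in lactating mice (Gjb6) and 1 lower (Slc4a4) at an unadjusted limma p under 0.05. Over all clusters, 3.26% were called higher and 4.69% lower. The mean level of the astrocyte markers spanned -0.08 to 0.12 (log2, relative to the mean of 12 mice) in lactating mice and -0.08 to 0.10 in virgin mice.

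Slc6a13 codes for GAT2, a GABA and taurine carrier known in the brain mainly from the meninges. Lactating mice gave 323 at the lowest, 385 at the median and 953 at the highest, against 321, 379 and 441 in virgin mice. Lactating mouse 4 alone set the upper end, since the other 5 lactating mice lay between 323 and 450. The means were 472 ± 240 and 376 ± 40.3 (SD, n = 6 each), and the difference was 0.21 ± 0.21 (SE) on the log2 scale, an interval of -15.5% to 59.4% (limma adjusted p = 0.744; exact permutation p = 0.519). Without lactating mouse 4 the lactating mean was 376 ± 53.4 (SD, n = 5), the difference -0.0045 on the log2 scale and its interval -0.21 to 0.20, so the size of the difference came from that mouse. With it, 98.2% of all clusters had a smaller residual SD. The log2 ratio of Slc6a11 to Slc6a13 was 2.47 in lactating mouse 4 and between 3.24 and 4.11 in the other 11 mice, and the group difference of -0.20 ± 0.25 (SE, exact permutation p = 0.548) turned to 0.02 without it.

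The receptor subunits also gave small differences. Gabbr1, the subunit that binds GABA, ran from 6904 over 7104 to 7257 in lactating mice and from 6709 over 7062 to 7353 in virgin mice. The lactating values again lay within the virgin ones. The difference was 0.01 ± 0.03 (SE) on the log2 scale, with an interval of -4.30% to 5.40% (limma adjusted p = 0.955), and it passed below 0 without virgin mouse 5. Only 1.31% of clusters, taken over all intensities, had a smaller residual SD.

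Gabbr2, the subunit that couples to the G protein and brings the receptor to the membrane, gave 3514, 3613 and 4107 in lactating mice and 3426, 3536 and 3962 in virgin mice (lowest, median, highest). Lactating mouse 4 was highest and virgin mouse 2 next. The difference was 0.04 ± 0.05 (SE) on the log2 scale, an interval of -4.75% to 10.7% (limma adjusted p = 0.801), and was 0.01 without lactating mouse 4 and 0.07 without virgin mouse 2. The log2 ratio of Gabbr1 to Gabbr2 differed by -0.03 ± 0.05 (SE) between the groups (exact permutation p = 0.524). Adjusted over the 3 ratios compared within arrays, each of the p-values was 0.693.

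**Figure D2:**
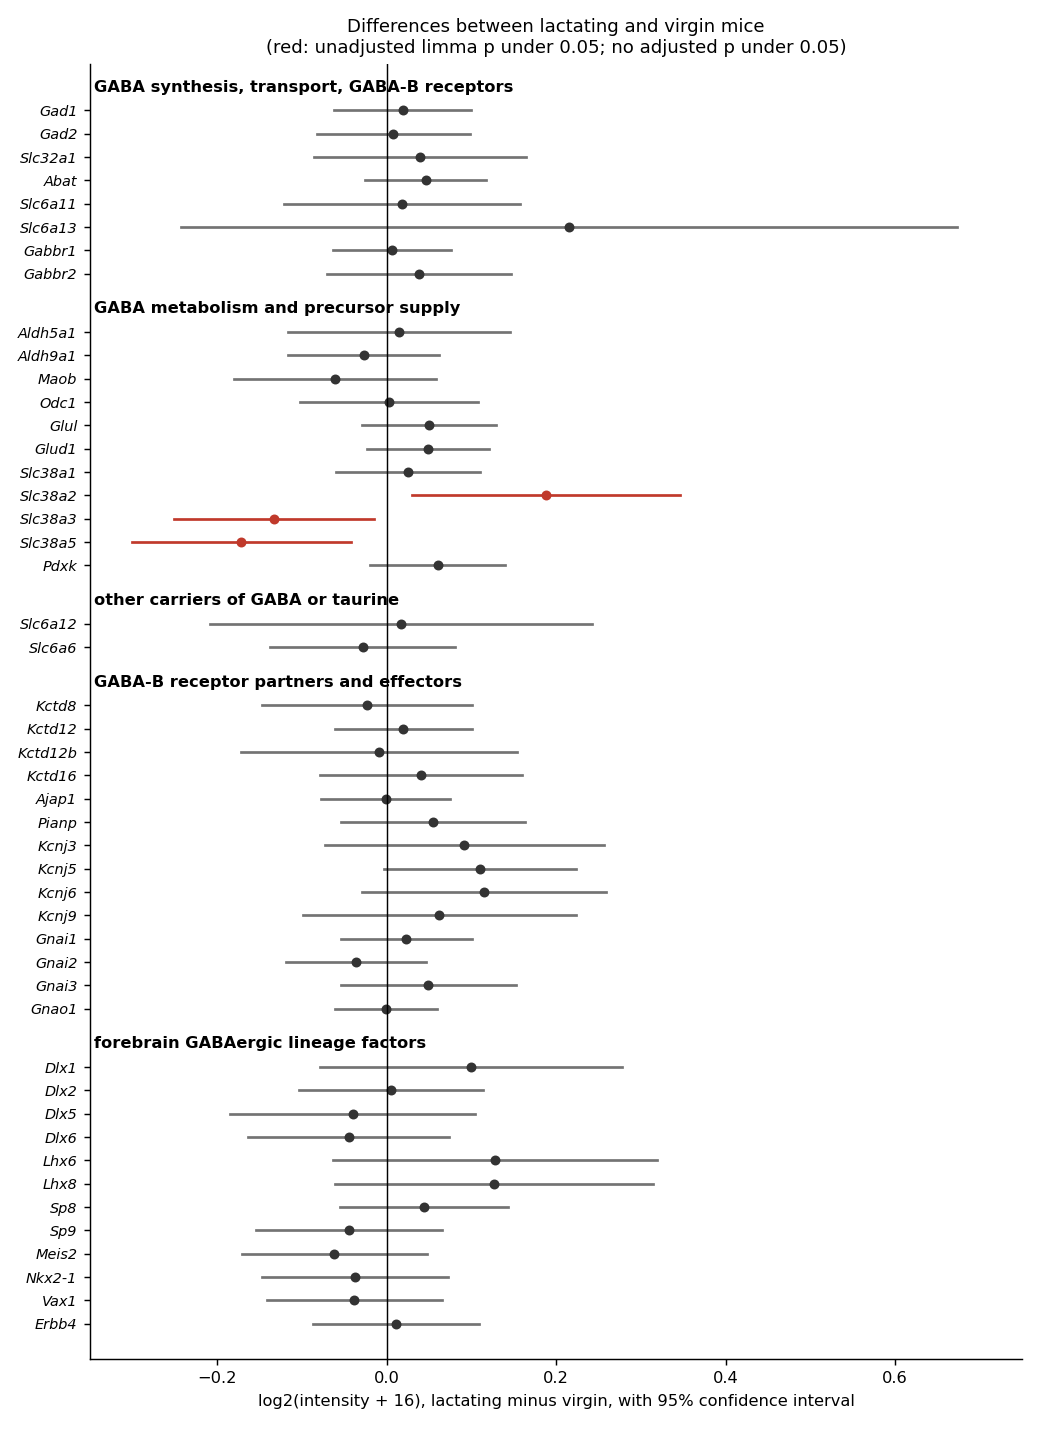
Difference in log2(intensity + 16), lactating minus virgin, as points with 95% confidence intervals from limma (n = 6 per group), for the 8 genes and for 4 lists of other genes of the pathway; red marks an unadjusted p under 0.05. All 8 intervals at the top cross 0, and the 3 red genes are the glutamine carriers Slc38a2, Slc38a3 and Slc38a5.

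Other genes of the pathway were followed in 4 lists. The list of GABA metabolism and precursor supply held 11 measured genes of 14, of which 1 was higher (3.26% of all clusters were) and 2 were lower (4.69%), with a median log2 difference of 0.01. All 3 belong to the Slc38 family of amino acid carriers, which move glutamine, the precursor of the glutamate from which GABA is made. The breakdown enzyme Aldh5a1 (log2 difference 0.01), the glutamine synthetase gene Glul (0.05) and the glutamate dehydrogenase gene Glud1 (0.05) were not called by limma, although a second Glul cluster was (0.08, unadjusted p = 0.0193). The study listed Glul as higher in lactating mice at its own cutoff. Its real-time PCR, on groups that included the array mice, also found Glul higher.

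Slc38a2, a carrier that brings glutamine into cells, was higher in lactating mice. It ran from 2307 over 2892 to 3030 there and from 2230 over 2440 to 2806 in virgin mice, and 4 lactating mice lay above every virgin mouse. The difference was 0.19 ± 0.07 (SE) on the log2 scale, or 13.9% (limma p = 0.0236, adjusted p = 0.619; exact permutation p = 0.0455). The call was lost without lactating mouse 1, 3 or 5 or virgin mouse 1 or 2, where the difference was 0.16 to 0.17, and with array weights on all 12 mice, where it was 0.16.

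Slc38a3 and Slc38a5, carriers that can also release glutamine from astrocytes, were lower. Slc38a3 ran from 2238 over 2517 to 2836 in lactating mice and from 2648 over 2760 to 3019 in virgin mice, with 4 lactating mice below every virgin mouse. Its difference was -0.13 ± 0.05 (SE) on the log2 scale (limma p = 0.0305, adjusted p = 0.619; exact permutation p = 0.0346). It was not called by limma with array medians subtracted (log2 difference -0.11), nor without lactating mouse 2 (-0.10) or 3 (-0.12) or virgin mouse 3 (-0.13) or 4 (-0.11).

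Slc38a5 ran from 410 over 453 to 495 in lactating mice and from 479 over 503 to 588 in virgin mice, again with 4 lactating mice below every virgin mouse. The difference was -0.17 ± 0.06 (SE) on the log2 scale (limma p = 0.0133, adjusted p = 0.619; exact permutation p = 0.0108). It kept its sign and a limma p under 0.05 whichever mouse was left out.

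The partners and effectors of the GABA-B receptor were all 14 measured. None was called by limma at an unadjusted p under 0.05, where 7.95% of all clusters were. Of the 14 differences, 9 were above 0, and the median was 0.03. The smallest limma p-values were those of subunits of the potassium channels that the receptor opens, Kcnj5 (0.11 ± 0.05 SE on the log2 scale, exact permutation p = 0.0671), Kcnj6 (0.12 ± 0.07, exact permutation p = 0.113) and Kcnj3 (0.09 ± 0.08, exact permutation p = 0.299). Of the other settings that used all 12 mice, 7 called Kcnj5 higher, for example quantile normalization, where its log2 difference was 0.15. Its intensities of 190 to 240 were near the vomeronasal percentile, which was 163 to 214 by array. The auxiliary subunit gene Kctd12 (0.02), the anchoring partner Ajap1 (0.00) and the G protein gene Gnao1 (0.00) gave differences near 0.

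Slc6a12, a carrier of betaine and GABA, and the taurine carrier Slc6a6 were measured, and neither was called (log2 differences 0.02 and -0.03). Of 14 transcription factors and other genes that mark the forebrain GABA lineage, 12 were measured. Limma called none of the 12 at an unadjusted p under 0.05, where it called 7.95% of all clusters. The median difference of the 12 was -0.02. Their smallest limma p-values were those of Lhx8 (0.13, exact permutation p = 0.216), Lhx6 (0.13, exact permutation p = 0.199) and Meis2 (-0.06, exact permutation p = 0.24).

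Some of the 8 genes varied together from mouse to mouse. Over the 28 pairs, Pearson's r of log2(intensity + 16) across 12 mice ran from -0.601 to 0.802, with a median of 0.211 and 21 values above 0. After Benjamini-Hochberg adjustment over the pairs, 2 had a permutation p under 0.05 by Pearson's r and 0 by Spearman's rho.

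**Figure D3:**
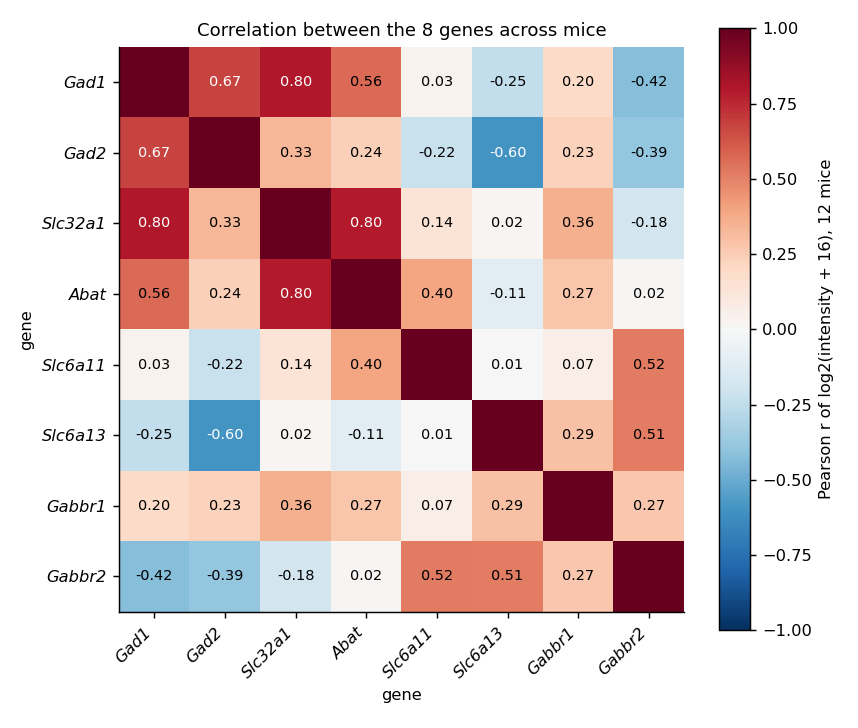
Pearson's r of log2(intensity + 16) between each pair of the 8 genes over 12 mice, written in each cell and coloured from blue (-1) to red (1). The darkest cells off the diagonal join Slc32a1 to Gad1 (0.80) and to Abat (0.80), and the deepest blue joins Gad2 to Slc6a13 (-0.60).

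The first pair was Gad1 with Slc32a1, at r = 0.802 (permutation p = 0.00159, adjusted p = 0.0273) and rho = 0.72 (permutation p = 0.0106, adjusted p = 0.149). Mice with more of the synthesis transcript had more of the vesicular transporter transcript, in virgin mice (r = 0.908) and in lactating mice (r = 0.535), and r was 0.794 once the group means were subtracted. Without virgin mice 2 and 4, the farthest from the median of Gad1, r was 0.587 (permutation p = 0.074), and the call was lost. Leaving out the extremes of Gad1 narrows its range and leaves fewer mice. The loss therefore cannot show by itself whether the relation rested on those mice. Slc32a1 with Abat gave r = 0.795 (permutation p = 0.00195, adjusted p = 0.0273) and rho = 0.797 (permutation p = 0.00316, adjusted p = 0.0885). This held within lactating mice (r = 0.882) and within virgin mice (r = 0.836), and r was 0.638 (permutation p = 0.0491) without virgin mice 2 and 6. The low values of Slc32a1 in virgin mice 2 and 6 came with the lowest 2 values of Abat.

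The decarboxylases Gad1 and Gad2 gave r = 0.673 (permutation p = 0.0164, adjusted p = 0.153) and rho = 0.601 (permutation p = 0.0434, adjusted p = 0.304), a relation that did not pass adjustment. The negative r of Gad2 with Slc6a13, -0.601 (permutation p = 0.0355, adjusted p = 0.249; rho = -0.371, permutation p = 0.234, adjusted p = 0.638), became -0.189 without lactating mouse 4. Without lactating mice 3 and 4, the farthest from the median of Gad2, it was -0.141. The receptor subunits gave r = 0.27 (permutation p = 0.393, adjusted p = 0.719) and rho = 0.14 (permutation p = 0.665, adjusted p = 0.954), which passed no threshold.

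Such values were not rare on these arrays, where all genes share library and scan. For each of the 8 genes the 11461 other genes with 1 symbol and a mean above the median were ranked by r after subtraction of group means. Abat stood at place 404 for Slc32a1 and Gad1 at place 697, while Slc32a1 stood at place 92 for Abat and at place 160 for Gad1. The genes most like each of the 8 were Hipk3 (r = 0.937) and Bcl7b (0.934) for Gad1, Mbnl1 (0.937) and Sp3 (0.931) for Gad2, Tmem129 (0.968) and Ranbp3 (0.967) for Slc32a1, and Btbd6 and Bhlhe41 (both 0.935) for Abat. For the carriers and receptor subunits they were Glyr1 (0.938) and 4931428F04Rik (0.916) for Slc6a11, Slc6a20a (0.973) and Igf2 (0.954) for Slc6a13, Fam219b (0.898) and Adgrl4 (0.886) for Gabbr1, and Fbxo34 (0.895) and Fam189a1 (0.894) for Gabbr2. No other of the 8 genes was among these nearest genes.

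Of the 8 genes, Slc6a13 had the highest r with a marker list of another tissue. Its nearest gene, Slc6a20a, is itself one of 8 meningeal markers followed, and r with it was 0.808 without lactating mouse 4. The mean level of these markers spanned -0.20 to 0.61 (log2, relative to the mean of 12 mice) in lactating mice and -0.15 to 0.19 in virgin mice. Limma called 1 of the 8, Ogn, higher in lactating mice, where 3.26% of all clusters were. For Ogn, 5 lactating mice lay above every virgin mouse (exact permutation p = 0.00433). Across 12 mice Slc6a13 followed the mean of the meningeal markers at r = 0.945, and at 0.83 over the 11 mice other than lactating mouse 4.

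In that mouse Slc6a20a stood at 1217 against 515 to 685 in the other 11, Ogn at 284 against 68.8 to 139 and Aldh1a2 at 288 against 110 to 196, whereas Col1a1, at 487, lay within 423 to 510. Lum was under the vomeronasal percentile on every array, Ogn on every array but that of lactating mouse 4, and Aldh1a2 on some arrays. None of the 8 was at 0. Of the 8 meningeal markers, 7 were higher in this mouse than in any other, the exception being Col1a1. The gap was small for Dcn (960 against at most 921 elsewhere), Col1a2 (539 against 521) and Lum (112 against 111).

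The same mouse had the highest mean level of the 7 measured markers of excitatory neurons of cortex and hippocampus, and the highest intensity of 5 of them, the exceptions being Neurod2 and Emx1. Their mean spanned -0.63 to 1.31 in lactating mice and -0.45 to 0.30 in virgin mice. Limma called 1 of the 7 higher in lactating mice (Nrn1), where 3.26% of all clusters were. For Nrn1, 5 lactating mice lay above every virgin mouse (exact permutation p = 0.00866). Slc17a7, Neurod6 and Tbr1 were under the vomeronasal percentile on some arrays, Neurod6 on those of all virgin mice. None of the 7 was at 0. Slc17a7, the vesicular glutamate transporter of these neurons, was at 3722 there and at 113 to 1163 elsewhere. Slc6a13 followed this list at r = 0.863, and at 0.497 without the mouse. It also followed the astrocyte markers, at r = 0.741 and at 0.687 without the mouse. With the oligodendrocyte markers r was 0.108 over all mice and 0.718 without it.

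Markers of the striatum ran the other way. The mean of the 6 measured spanned -0.48 to 0.25 in lactating mice and -0.02 to 0.28 in virgin mice. None of the 6 was called by limma at an unadjusted p under 0.05, where 7.95% of all clusters were. All 6 differences were below 0 and none at 0. Slc6a13 had r = -0.658 with this list, and 0.157 without lactating mouse 4. Gabbr2 had r = -0.723, and -0.472 without it. Gad2, which was lowest in lactating mouse 4, had r = -0.585 with the cortex and hippocampus list and -0.576 with the meningeal list. Without that mouse the values were -0.228 and -0.192. The part of other cell types and adjoining tissue in the levels of Slc6a13, Gad2 and Gabbr2 was not tested.

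**Figure D4:**
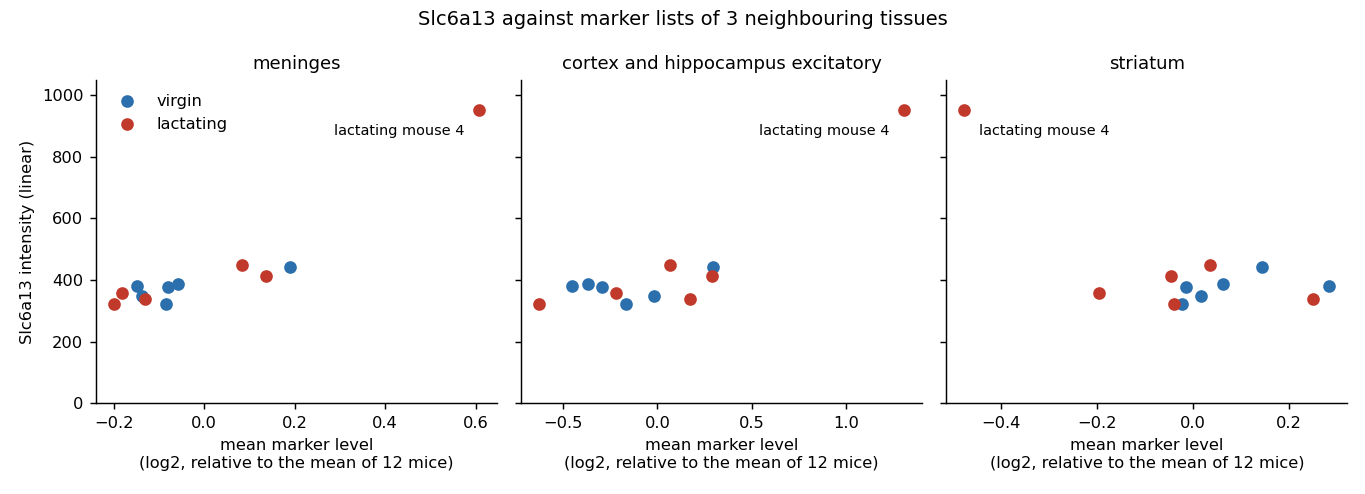
Slc6a13 intensity (linear) of each mouse against the mean level of markers of meninges, of excitatory neurons of cortex and hippocampus, and of striatum (log2, relative to the mean of 12 mice), virgin in blue and lactating in red. Lactating mouse 4, at 953, lies at the far end of each marker axis, high for the first pair of lists and low for striatum, while the other 11 mice lie between 321 and 450.

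For the genes of GABA neurons, r with the septum markers was lower. Gad1 had r = 0.466 with the lateral septum markers and 0.469 with the medial septum markers. Gad2 had 0.445 and 0.272, and Slc32a1 had 0.282 and 0.31. Slc6a11 had r = 0.666 with the medial septum markers, and 0.679 without lactating mouse 4. With the markers of neurons in general, Gabbr1 had r = 0.642 and Gad1 0.432. These values describe 12 arrays on which genes and markers share labelling and scaling, and differences between them were not tested.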

How the data were processed

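The authors extracted total RNA from micropunched septum, prepared it in pairs matched across the groups (the pairing is not given), and scanned 1 array per mouse. Per the methods and the labels' processing notes, the deposited intensity values were summarised per transcript cluster and normalized with the PLIER algorithm and background correction by GC bin in Affymetrix Power Tools 1.12.0. They are linear, from 3e-05 to 26317, and no genome build of the array is given. The number of arrays limits the precision.

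From the deposited intensities, log2(intensity + 16) was fitted over all 35556 clusters, without a filter, by lmFit and eBayes of limma 3.58.1 (R 4.3.3), two-sided, with Benjamini-Hochberg adjustment. For 496 clusters the mean lay below the 16 added, which compresses their differences, but none of the 8 genes is among them. Single values were also compared by exact permutation. Correlations used 100000 permutations (Python 3.11.15, NumPy 2.4.6). A list's gene is its brightest cluster carrying 1 symbol. Named are the 8 genes, the list genes with an unadjusted p under 0.05 or, where fewer than 3, the 3 smallest p-values, and the 2 genes most like each of the 8. Aldh5a1, Glul, Glud1, Kctd12, Ajap1 and Gnao1 and the markers given by value were named outside this rule, after their values were seen. The 8 genes and all lists were chosen with earlier results of these data known. The alternatives were linear intensities, an added 1, clusters above the median or with 1 symbol, quantile normalization, array medians, cyclic loess, array weights, trend and robust estimation, a replicate block, each mouse left out, and, for list genes with several clusters, their mean.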

Additional observations from a re-analysis of the deposited data

Results flagged for a closer look

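In groups of 6 mice, the gap of the highest or lowest mouse to its nearest neighbour was set against the range of the group and compared with Dixon's critical value for groups of that size. Of 28 groups screened, 3 passed, and chance alone passes about 1 in 20. Lactating mouse 4 stood apart for Slc6a13 intensity (0.798) and for the log2 ratio of Slc6a11 to Slc6a13 (0.733), and both values come from the same measurement. Virgin mouse 6 stood apart for Slc38a5, at 588 against 479 to 506 in the other 5 virgin mice (0.754). The lower Slc38a5 of the lactating mice was still called without that mouse (log2 difference -0.13 by limma).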

How the results depend on the processing

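None of the 8 genes passed an unadjusted limma p of 0.05 under any of 22 alternatives, and the smallest p was 0.0529, for Abat on linear intensities. Every difference kept its sign under the alternatives that used all 12 mice. With 1 mouse left out, signs turned for Gad2 (range -0.0111 to 0.0311), Slc6a11 (-0.033 to 0.0531), Slc6a13 (-0.0045 to 0.30) and Gabbr1 (-0.0090 to 0.0174), whereas Gad1 (0.0024 to 0.0372), Slc32a1 (0.0039 to 0.0696), Abat (0.0322 to 0.0547) and Gabbr2 (0.0082 to 0.0653) kept theirs; signs also turned for the log2 ratios of Gad1 to Gad2 (-0.0031 to 0.0216) and Slc6a11 to Slc6a13 (-0.29 to 0.0163). The GABA-B partner list had 1 called gene, Kcnj5, in place of 0 with clusters of 1 gene symbol, quantile normalization, array medians subtracted, cyclic loess, array weights, the replicate block and the mean over clusters, and 0 to 2 with 1 mouse left out. The metabolism list, with 3 called genes as reported, had 4 on linear intensities (Glud1 added), 2 with array medians subtracted (without Slc38a3), 2 with array weights (without Slc38a2), and 1 to 3 with 1 mouse left out, the lowest without lactating mouse 3. The causes were not tested. Samples of the same number were not shown to be pairs: their residuals correlated above 0.1 for 2 of 6 numbers, and for 2 of 6 numbers the best match was the mouse of the same number. With the replicate block the Abat difference stayed at 0.05 and was not called, and beyond the partner list no count of calls changed. Linear intensities gave 1569 higher and 1274 lower calls over all clusters, quantile normalization 1300 and 1191, and cyclic loess 1340 and 1129. With 6 mice a group, the intervals span changes of several percent for most of the 8 genes and larger ones for Slc6a13.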
